A study of Mus musculus with 477 samples.

Results

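Krt7, Krt8, Krt18 and Krt19, the keratins of luminal mammary cells, and Krt5, Krt14, Krt15, Krt17 and Krt6a, those of basal and stratified epithelium, were followed in single cells of mouse mammary glands and tumors. The members were chosen by gene symbol, and all 9 were found among the 21004 genes of the count table, which held 52 keratin genes in all. The series held 312 luminal and 165 tumor cells of 11 female mice in 10 groups, on 8 microfluidic chips. The mice were a mixed C57BL/6 and 129/Sv background and carried MMTV-Cre, also in the groups used as references here, and the luminal cells were sorted on the ROSA mT/mG reporter, which is not stated for each tumor. Br mice were Brca1 fl/fl, Br53 mice were Brca1 fl/fl and Trp53 fl/+, and 53 mice were Trp53 fl/+ alone. These Trp53 alleles follow the paper's methods, whereas its supplement names Trp53 fl/fl for the gland genotypes shown by flow cytometry. Luminal cells (L) were taken from glands 3 to 4 months of age, either from virgin mice (vBrL, vBr53L, v53L, 1 mouse each) or at day 12.5 of pregnancy (pBr53L and p53L, 1 mouse each, and pBrL, 2 mice, named here pBrL-1 and pBrL-2). Tumor cells (T) came from 1 tumor in each of 4 mice, BrT1, BrT2, Br53T1 and Br53T2. All groups carried floxed Brca1, floxed Trp53 or both, so no group was wild type, and there were no mice without Cre.

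MMTV-Cre acts mainly in mammary epithelium and in other MMTV-active cells. The luminal gate took CD24-high, CD29-low cells that had switched on membrane GFP, and so removed the CD29-high basal cells. The tumor gate took CD24-positive cells and used neither CD29 nor GFP. The tissue, the gate and age cannot be told apart in comparisons between tumors and glands. In the paper the tumors of Br mice form later than the age of these glands, and Trp53 mutation speeds them. The ages of the mice with these tumors are not given here. The cells held 170209 to 3550560 reads each and the mice 40338926 to 115827852 reads summed. As CPM, the counts-per-million scaling to all reads of a mouse, Brca1 ranged from 1.70 (BrT2) to 57.2 (BrT1) and Trp53 from 5.05 (BrT1) to 515 (pBrL-2), and counts over a whole gene do not show whether the floxed exons were removed, so they check no label. Epcam was 1025 to 2379 CPM in the luminal mice and 19.2 CPM in BrT1, whose cells had Vim at 4080 CPM. Cdh1 had no read in BrT1, so that tumor lacked a defining marker of the epithelium.

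Keratins are the intermediate filament proteins of epithelia. A filament is built from pairs of a type I and a type II keratin. Krt8 (type II) pairs with Krt18 (type I) in simple epithelia, where Krt7 and Krt19 accompany them. Krt5 (type II) pairs with Krt14 (type I) in the basal, myoepithelial layer of the mammary gland and in the basal layer of skin. Krt15 is a type I keratin of basal cells, and Krt17 and Krt6a are induced in wounded or activated stratified epithelium. In the gland the luminal cells line the ducts and make milk, whereas the basal cells contract around them.

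The type II genes lie on chromosome 15 and, except for Krt18, the type I genes on chromosome 11 (GRCm38, GENCODE vM21, the same assembly as the build mm10 of the files). Krt8 (chr15:101996698-102004482, minus strand) and Krt18 (chr15:102028180-102032027, plus strand) were neighbours, with 23697 bases between them. Krt5 spanned chr15:101707070-101712898 and Krt6a chr15:101689910-101694307, both on the minus strand, and Krt7 chr15:101411043-101430313 on the plus strand. Krt14 (chr11:100203162-100207548), Krt15 (chr11:100131758-100135928), Krt17 (chr11:100256217-100261029) and Krt19 (chr11:100140810-100148665) were all on the minus strand of chromosome 11. The upstream sequences of the filament partners Krt8 and Krt18, the 2 highest luminal keratins per kilobase in the luminal mice, and of the basal gene Krt5 are shown with letters taken from RefSeq (GRCm38.p6). Only bases upstream of the annotated gene are given, and capitals mark the motifs found.

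Krt8, chr15:102004483-102004592, minus strand: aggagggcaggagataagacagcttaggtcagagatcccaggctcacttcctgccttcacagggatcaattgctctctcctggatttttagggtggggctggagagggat
Krt18, chr15:102027966-102028179, plus strand: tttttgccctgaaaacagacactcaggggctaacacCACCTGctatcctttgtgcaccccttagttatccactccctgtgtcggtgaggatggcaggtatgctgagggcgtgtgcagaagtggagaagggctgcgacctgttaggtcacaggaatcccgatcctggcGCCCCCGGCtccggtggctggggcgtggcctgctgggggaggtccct
Krt5, chr15:101712906-101713155, minus strand: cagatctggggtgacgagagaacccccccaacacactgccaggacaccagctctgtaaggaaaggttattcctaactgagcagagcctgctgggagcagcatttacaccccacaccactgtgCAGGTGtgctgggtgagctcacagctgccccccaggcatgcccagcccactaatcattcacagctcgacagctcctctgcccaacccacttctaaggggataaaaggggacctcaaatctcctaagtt

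The 250 bases before the RefSeq start were searched on both strands for 5 motifs, the TATA box TATAAA, the GC box GGGCGG, the AP-2 motif GCCNNNGGC, the AP-1 motif TGANTCA and the E-box CACCTG. The search covered the 5 keratins present in the table, Krt7, Krt8, Krt18, Krt5 and Krt14. CACCTG was matched once in each of Krt7, Krt8, Krt18 and Krt5 and in 17.1% of 27025 promoters, and the Krt8 match lay inside the annotated gene and is not shown. GCCNNNGGC was matched once in Krt18, at 83 bases before the start, and in 13.6% of all promoters. Krt7 held 4 matches of GGGCGG, a motif in 32.9% of all promoters, and 2 of GCCNNNGGC, 1 of which overlapped a GGGCGG match. No TATAAA or TGANTCA was found in these 5 windows, against 12.97% and 6.87% of all promoters. These matches describe letters only.

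Krt18 was the highest member in every mouse. Among the luminal mice vBrL had 3502 CPM, pBrL-1 had 3452, pBrL-2 had 3297, vBr53L had 5664, pBr53L had 3256, v53L had 6014 and p53L had 3089. Among the tumors BrT1 had 315 CPM, BrT2 had 1993, Br53T1 had 2747 and Br53T2 had 2453. The 4 tumors thus lay below all 7 luminal mice, with BrT1 the lowest by far.

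Krt8, its filament partner, reached 1193 CPM in vBrL, while pBrL-1 had 1354, pBrL-2 had 1148, vBr53L had 2491, pBr53L had 1754, v53L had 1946 and p53L had 1459. BrT1 had 178 CPM, BrT2 had 930.3, Br53T1 had 925 and Br53T2 had 880.2. Again no tumor reached the lowest luminal mouse, and BrT2, Br53T1 and Br53T2 were close to each other. Per kilobase of exon, Krt18 exceeded Krt8 by 2.42 times (BrT1) to 4.21 times (v53L), so the pair kept its order in all 11 mice. All 312 luminal cells had reads of both genes. Spearman's rho between Krt8 and Krt18 over the cells of a mouse ran from 0.613 to 0.791 in the luminal mice and from 0.499 to 0.908 in the tumors, given as a description since the cells share a library and the 2 values share a total.

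Krt19, which lacks the tail of other keratins, reached 495 CPM in vBrL, while pBrL-1 had 1055, pBrL-2 had 889, vBr53L had 1303, pBr53L had 837, v53L had 1486 and p53L had 747. Among the tumors it had no read in BrT1, where 3 reads would have been 0.0331 CPM, whereas BrT2 had 25.2 CPM, Br53T1 had 87.98 and Br53T2 had 818. Br53T2 alone among the tumors lay within the luminal range. Krt19 was read in 311 of 312 luminal cells, in 10 of 37 BrT2 cells and in 17 of 30 Br53T1 cells.

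Krt7, a keratin of ducts and other simple epithelia, had the widest range by fold among the 4 luminal keratins in the luminal mice. The virgin mice had 58.7 (vBrL), 288 (vBr53L) and 382 CPM (v53L), and the pregnant mice 32.97 (pBrL-1), 39.2 (pBrL-2), 33.3 (pBr53L) and 13.53 CPM (p53L). All 3 virgin mice lay above all 4 pregnant mice. The tumors ran from 0.155 CPM in BrT1 through 115 in BrT2 and 426 in Br53T1 to 497 in Br53T2. Within a mouse Krt7 was uneven: 153 of 312 luminal cells had a read, and in pBrL-1 the median cell was at 0 CPM while the highest reached 745 CPM.

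**Figure D1:**
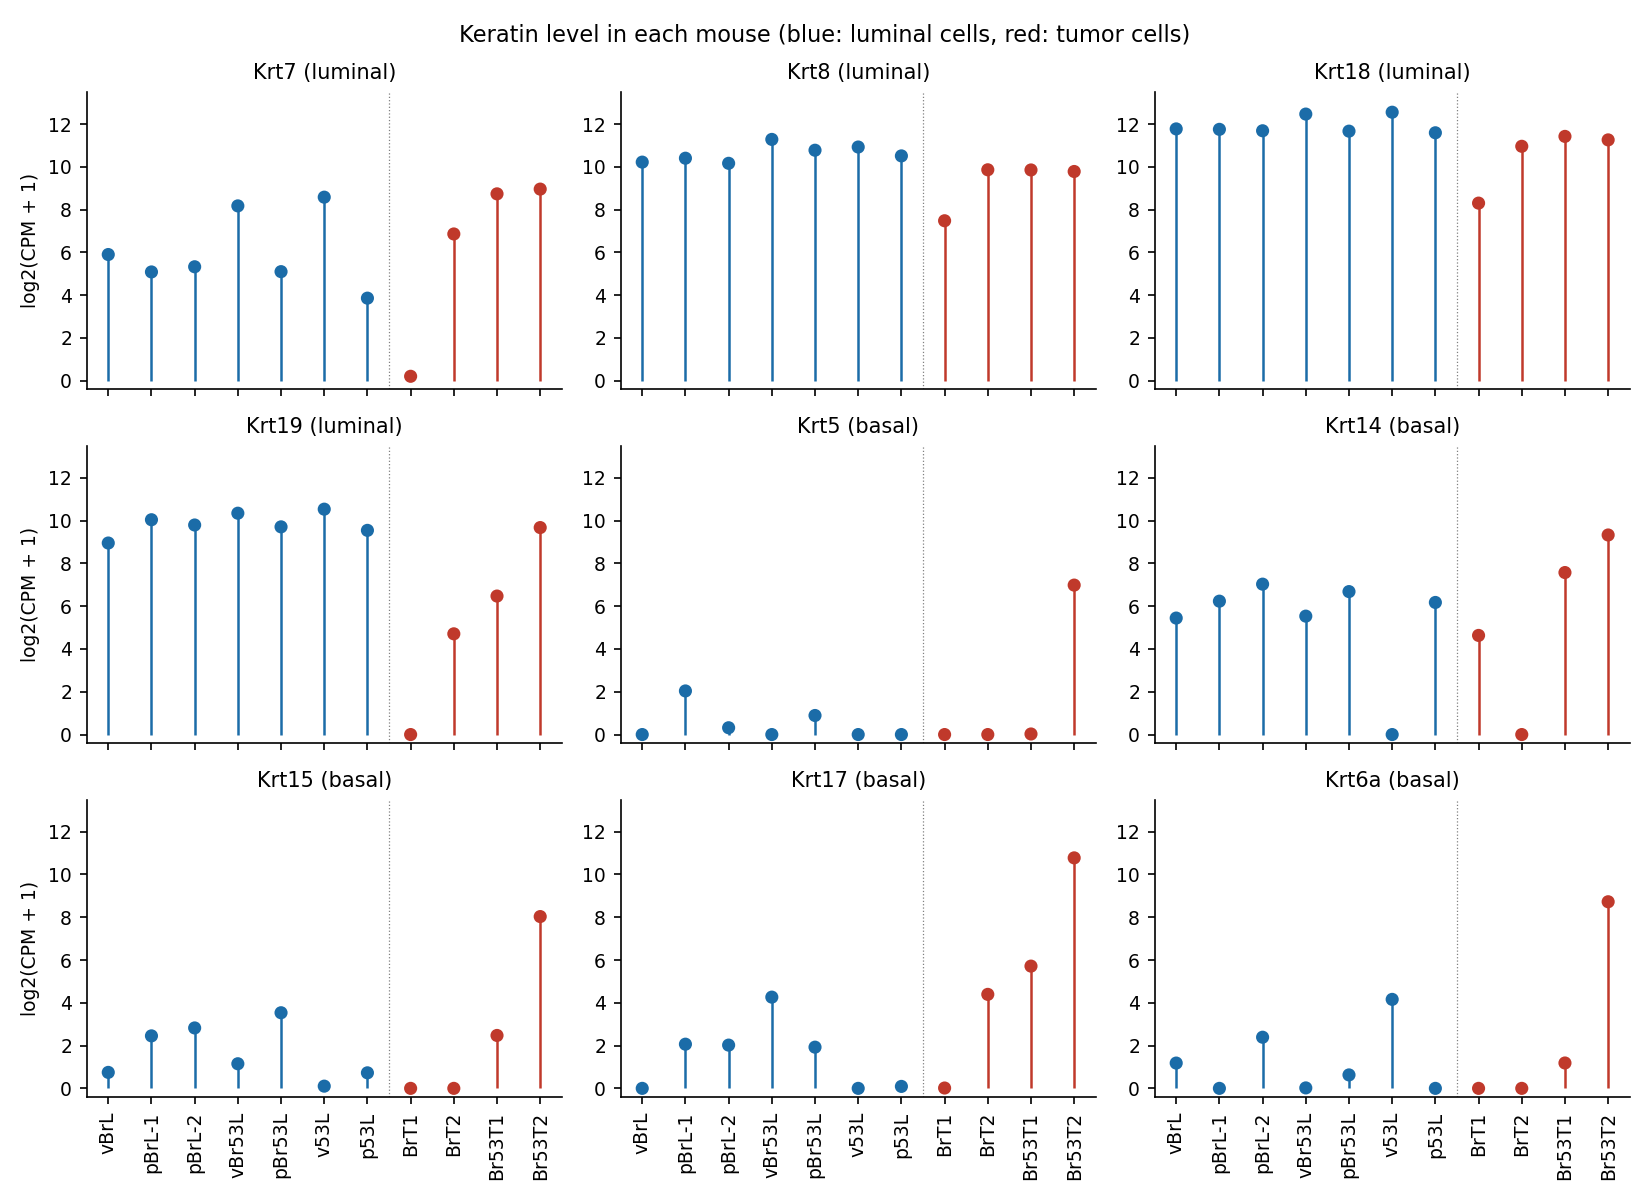
Level of each keratin in each mouse as log2(CPM + 1) of reads summed over the mouse's cells, with luminal mice in blue and tumors in red; each point is 1 mouse, with no error since a mouse is 1 value. Krt8 was 1148 CPM or more and Krt18 3089 CPM or more in all luminal mice, BrT1 was low in every luminal keratin, and Br53T2 was the highest mouse for all 5 basal keratins.

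Krt14, the partner of Krt5, was the basal keratin most often read in luminal cells, in 115 of 312. The level was 42.6 CPM for vBrL, 74.4 for pBrL-1, 129.8 for pBrL-2, 45.4 for vBr53L, 102 for pBr53L and 71.3 for p53L. It had no read in the 40 cells of v53L, where 3 reads would have been 0.0744 CPM. Of the tumors BrT1 had 23.8 CPM, BrT2 had none, Br53T1 had 189.7 and Br53T2 had 643. Both Br tumors lay below the 3 Br luminal mice, and both Br53 tumors above the 2 Br53 luminal mice. A single cell held 59.4% of the summed per-cell CPM of Krt14 in Br53T1.

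Krt5 was nearly absent outside Br53T2. That tumor had 126 CPM and a read in 36 of 51 cells. Br53T1 had 1 read, BrT1 and BrT2 had none, and vBrL, vBr53L, v53L and p53L had none. The remaining luminal mice were at 3.11 CPM (pBrL-1), 0.247 (pBrL-2) and 0.854 (pBr53L). These came from 4 of 312 luminal cells. Krt14 without Krt5 was thus the usual state of Krt14-positive luminal cells.

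Krt17, an activation keratin, reached 1754 CPM in Br53T2, above Krt8 in the same tumor (1131 against 450 CPM per kilobase). It was 51.6 CPM in Br53T1, 20.0 in BrT2 and 0.0110 in BrT1. Among luminal mice it was highest in vBr53L (18.2 CPM), then 3.19 in pBrL-1, 3.06 in pBrL-2, 2.80 in pBr53L, 0.0655 in p53L, and 0 in vBrL and v53L. In BrT2 all 1000 reads came from 2 of 37 cells, and in vBr53L 1 cell held 90.6% of the summed per-cell CPM.

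Krt15 was 261 CPM in Br53T2, 4.55 in Br53T1 and 0 in both Br tumors, and from 0.0744 (v53L) to 10.6 CPM (pBr53L) in the luminal mice. Krt6a was 422 CPM in Br53T2, 1.28 in Br53T1 and 0 in both Br tumors, and from 0 to 16.9 CPM (v53L) in the luminal mice. As mean CPM over cells pBrL-2 was the highest luminal mouse, at 27.8 CPM, all of it in 1 of 38 cells. Of the Krt6a windows of 60 bases, 40.6% were also found in Krt6b transcripts, so reads of Krt6a and its close copy can be split either way by the counting. Krt6b itself was 11.3 CPM in Br53T2. The share found in any other gene was 46.7% for Krt6a, 24.96% for Krt8 (a processed copy, Krt8-ps), 9.95% for Krt14, 7.25% for Krt5, 1.54% for Krt17, and 0 for Krt7, Krt18, Krt19 and Krt15. Krt8, Krt5, Krt7 and Krt6a also overlap other annotated genes, and the counting is not stated to use strand.

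Summed, the 5 basal keratins were 40.8% of the reads of the 9 members in Br53T2 and 0.172 to 5.57% in the other 10 mice. The summed level of 10 basal lineage markers (Trp63, Acta2, Myh11, Mylk, Cnn1, Tagln, Oxtr, Cdh3, Lgr5 and Procr) was also highest in Br53T2, at 3473 CPM with none at 0, although Oxtr was highest in vBrL and Procr in BrT1. Br53T1 had a share of 5.57% and a sum of 48.9 CPM, BrT1 4.62% and 37.5 CPM, and pBrL-1 1.42% and 498 CPM. In pBrL-1 the largest item was Acta2 at 248 CPM, with 99.1% of its reads in 1 of 71 cells. The same cell held 99.9% of the Myh11 reads of pBrL-1, and 10518 reads of Mylk, 6220 of Cnn1 and 1565 of Tagln. Most of the sum of pBrL-1 thus came from 1 cell. The other luminal mice summed to 1.78 to 92.7 CPM. Of the 10, 8 were at 0 in v53L, which also had no Krt14 or Krt5. A level summed over a mouse cannot separate fewer positive cells from less RNA per cell, and the counts by cell below give the first directly.

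The first comparison set the 4 tumors against the 5 Brca1-deficient luminal mice, with no covariate, so neither genotype nor stage was adjusted for. The question was whether the luminal keratins fall and the basal keratins rise in tumors of these mice. No keratin passed an adjusted p of 0.05 in edgeR, of 9 tested, against 79 of 12978 genes (0.609%). At an unadjusted p under 0.05 there were 3 keratins, Krt8, Krt17 and Krt6a, and 1788 genes in all, and DESeq2 also called no keratin. Krt8 averaged 728 ± 368 CPM (SD, n = 4) in tumors and 1588 ± 559 CPM (n = 5) in luminal mice, a log2 fold change of -1.25 ± 0.50 (SE; adjusted p = 0.298 in edgeR). Krt18 averaged 1877 ± 1087 and 3834 ± 1028 CPM, a log2 fold change of -1.16 ± 0.55 (adjusted p = 0.380 in edgeR). Krt8 and Krt18 were also the 2 members whose CPM did not overlap between the arms, which held for 7.52% of the genes tested. Without BrT1 the changes were -0.92 for Krt8 and -0.81 for Krt18.

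The basal keratins had wide errors. Krt17 changed by 6.19 ± 2.23 on the log2 scale (adjusted p = 0.242 in edgeR) and Krt6a by 6.31 ± 2.74 (adjusted p = 0.337 in edgeR), both resting on Br53T2: without it the values were 1.98 and -1.65. Krt14 was 214 ± 298 CPM in tumors and 78.8 ± 37.4 in luminal mice, and its log2 fold change of 1.27 ± 1.37 turned to -0.33 without Br53T2. The median log2 fold change was -1.21 for the 4 luminal keratins and 5.04 for the 5 basal keratins, beside 0.06 over all genes tested. The basal value is that of Krt5, whose tumor reads, all but 1, were in Br53T2. Whether the tumor change itself differed by Trp53 genotype was fitted as an interaction. It was 5.22 ± 2.5 on the log2 scale for Krt14 (adjusted p = 0.920 in edgeR), and no keratin passed, against 1 of 15051 genes. At an unadjusted p under 0.05 were 752 genes. Krt5, Krt15 and Krt6a, among these, had no read in either Br tumor. Within the 1 chip that held both tissues, Br53T2 exceeded pBrL-2 by 2.30 for Krt14 and 8.75 for Krt17 on the log2(CPM + 1) scale and was lower by 0.38 for Krt8 and 0.43 for Krt18. That pair also differed in Trp53 genotype.

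**Figure D2:**
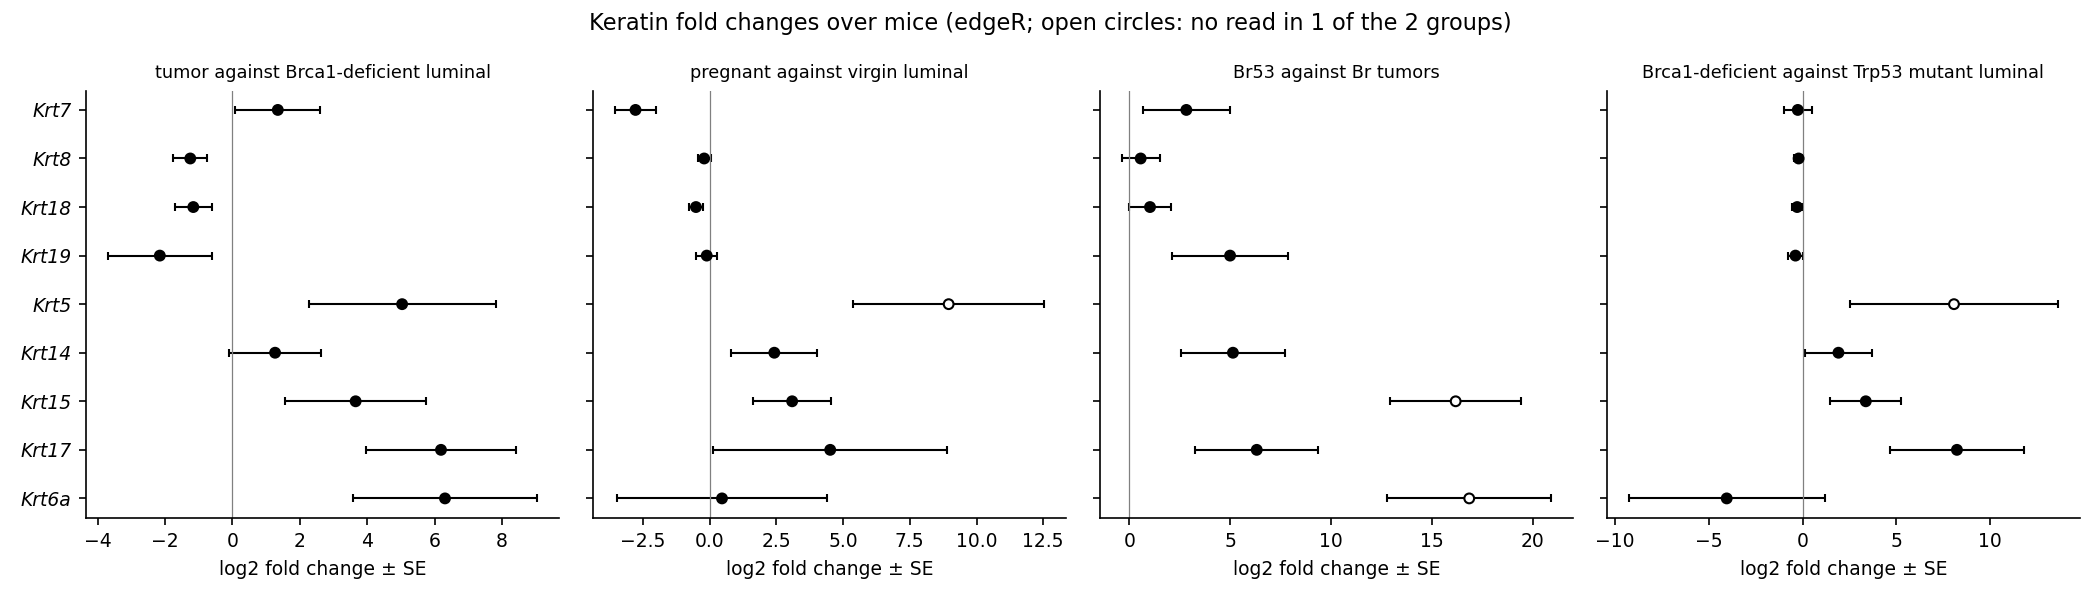
Log2 fold change of each keratin in the 4 comparisons (points) with its standard error from edgeR (bars); open circles mark keratins with no read in 1 of the 2 groups, whose size depends on the prior count. Krt8 and Krt18 lie at -1.25 and -1.16 in the first panel, Krt7 lies at -2.78 in the second, and no keratin passed an adjusted p of 0.05 in any panel.

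The second comparison asked what pregnancy does to the keratins of luminal cells, with 4 pregnant and 3 virgin mice and genotype as a covariate. Again no keratin was called, of 9 tested, against 2 of 12615 genes (0.0159%), with 1229 genes and 1 keratin, Krt7, at an unadjusted p under 0.05. DESeq2 called Krt7 and Krt15 among 967 genes. Krt7 averaged 29.7 ± 11.2 CPM (SD, n = 4) in pregnant and 243 ± 166 CPM (n = 3) in virgin mice, a log2 fold change of -2.78 ± 0.78 (adjusted p = 0.379 in edgeR). Krt7 and Krt18 were lower and Krt14 higher in pregnancy with no overlap of CPM, a pattern of 11.9% of the genes tested. Krt18 averaged 3274 ± 149 against 5060 ± 1360 CPM (log2 fold change -0.51 ± 0.26, adjusted p = 0.593 in edgeR) and Krt14 94.3 ± 27.4 against 29.3 ± 25.4 CPM (2.42 ± 1.61, adjusted p = 0.700 in edgeR). Both chips that held a virgin and a pregnant mouse gave the same directions. On the log2(CPM + 1) scale Krt7 was lower by 3.07 in Br53 and by 4.72 in 53 mice, Krt18 lower by 0.80 and 0.96, and Krt14 higher by 1.15 in Br53 mice. In 53 mice Krt14 was at least 959-fold higher in p53L, against a floor of 3 reads in v53L (0.0744 CPM). With chip in place of genotype Krt7 was called, at -3.88 ± 0.67 (adjusted p = 0.0394 in edgeR), among 42 genes. The pregnant Br mice lay on other chips than vBrL. Casein genes took 9.61 to 17.4% of the reads in pregnant and 3.48 to 4.09% in virgin mice, and leaving them out gave -2.78 for Krt7 and -0.52 for Krt18. Of 10 luminal markers none was called, and 4 of 10 (Prlr, Areg, Elf5 and Csn3) were at an unadjusted p under 0.05. The hormone receptor Prlr was 162 to 221 CPM in pregnant and 525 to 3713 CPM in virgin mice (log2 fold change -2.82 ± 0.42, adjusted p = 0.139 in edgeR), and the growth factor Areg 0.914 to 22.3 against 89.7 to 293 CPM (-4.84 ± 0.76, adjusted p = 0.139 in edgeR). Elf5 overlapped, at 135 to 1063 against 5.90 to 170.2 CPM (3.76 ± 0.72, adjusted p = 0.216 in edgeR). The other 6 markers lay between -0.44 and 0.64 on the log2 scale. The part of these genes in the Krt7 difference was not tested.

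The third comparison set the 2 Br53 tumors against the 2 Br tumors, and only the spread between 2 tumors of a kind was available. Of 8 keratins tested none was called, as for all 13477 genes (0%). At an unadjusted p under 0.05 there were 537 genes, Krt15 and Krt6a among them. DESeq2 called 315 genes, again with Krt15 and Krt6a. Of the 8 keratins tested, all but Krt8 were higher in both Br53 tumors than in both Br tumors, and 31.9% of the genes tested did not overlap either. Krt5 did not pass the filter on low counts, and its 1 read in Br53T1 cannot be told from 0. Krt7 averaged 461 ± 50.1 CPM against 57.7 ± 81.4 CPM (SD, n = 2 each). Krt14 averaged 416 ± 321 against 11.9 ± 16.9 CPM (log2 fold change 5.14 ± 2.58, adjusted p = 1.00 in edgeR). Krt15 and Krt6a had no read in the Br tumors. Against a floor of 3 reads in a Br tumor library (0.0601 CPM), Krt15 was at least 75.8-fold higher in Br53T1 and at least 4341-fold higher in Br53T2. Krt6a was at least 21.2-fold and at least 7024-fold higher in the same tumors. The bounds for Br53T1 rest on few cells, since all 70 of its Krt6a reads were in 1 of 30 cells and 1 cell held 94.6% of the summed per-cell CPM of Krt15. The calls turned on single tumors, since leaving out BrT1 gave a call for Krt14 among 52 genes, and leaving out BrT2 gave calls for Krt7, Krt19, Krt15 and Krt17 among 228 genes, with 1 Br tumor left that is assumed to vary like the others.

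The fourth comparison set the 5 Brca1-deficient luminal mice against the 2 Trp53 mutant luminal mice, with stage as a covariate. No keratin was called, of 9 tested, as for all 13709 genes (0%), with 757 genes and 1 keratin, Krt17, at an unadjusted p under 0.05. DESeq2 called 647 genes and again Krt17 alone among the keratins. Krt17 averaged 5.46 ± 7.26 CPM (SD, n = 5) against 0.0327 ± 0.0463 CPM (n = 2). Only Krt15 did not overlap, at 0.678 to 10.6 against 0.0744 to 0.655 CPM, against 11.3% of the genes tested. That gap rested on single cells, since the 47 reads of vBrL were in 1 of 35 cells and the 30 of p53L in 1 of 36. As mean CPM over cells vBrL had 0.411 and p53L 0.537, so the groups overlapped. Krt8 averaged 1588 ± 559 against 1703 ± 344 CPM and Krt18 3834 ± 1028 against 4551 ± 2068 CPM, differences within the spread between mice. Leaving out p53L, which left v53L alone with no Krt14 read and its spread taken from the other group, gave a call for Krt14 (adjusted p = 0.00310 in edgeR) among 142 genes. The comparisons that use luminal mice share them, and both that use tumors share those, so they are not independent of each other.

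To ask whether luminal and basal keratins occurred in the same cell, every cell was thinned to 100000 reads. A cell was called positive for a class at 10 or more summed reads, equal to 100 CPM. Shares are given with exact Clopper-Pearson 95% intervals, which cover counting error only. Among the 312 luminal cells 246 were positive for luminal keratins only, 65 (20.8%) for both, 1 for basal keratins only and 0 for neither. Of these 65 cells, 50 had Krt14 as the only basal keratin at the minimum, and none had Krt5 at it. The share of cells with both was 39.5% in pBrL-2 (15 of 38, interval 24.04 to 56.6%), 28.3% in pBr53L (15 of 53), 28.2% in pBrL-1 (20 of 71), 15.4% in vBr53L (6 of 39), 11.1% in p53L (4 of 36), 8.57% in vBrL (3 of 35) and 5.00% in v53L (2 of 40). Within each genotype the pregnant mice were above the virgin mice. The intervals of pBrL-2 and vBrL (1.80 to 23.1%) did not overlap, whereas those of pBrL-1 (18.1 to 40.1%) and vBrL did, as did those of the virgin and pregnant Br53 and 53 mice. The shares depended on the minimum. At 1 read they were 5.00% (v53L) to 57.9% (pBrL-2), and at 100 reads only pBrL-2 (2 cells) and p53L (1 cell) held any such cell. The 2 such cells of v53L carried Krt6a, not Krt14.

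**Figure D3:**
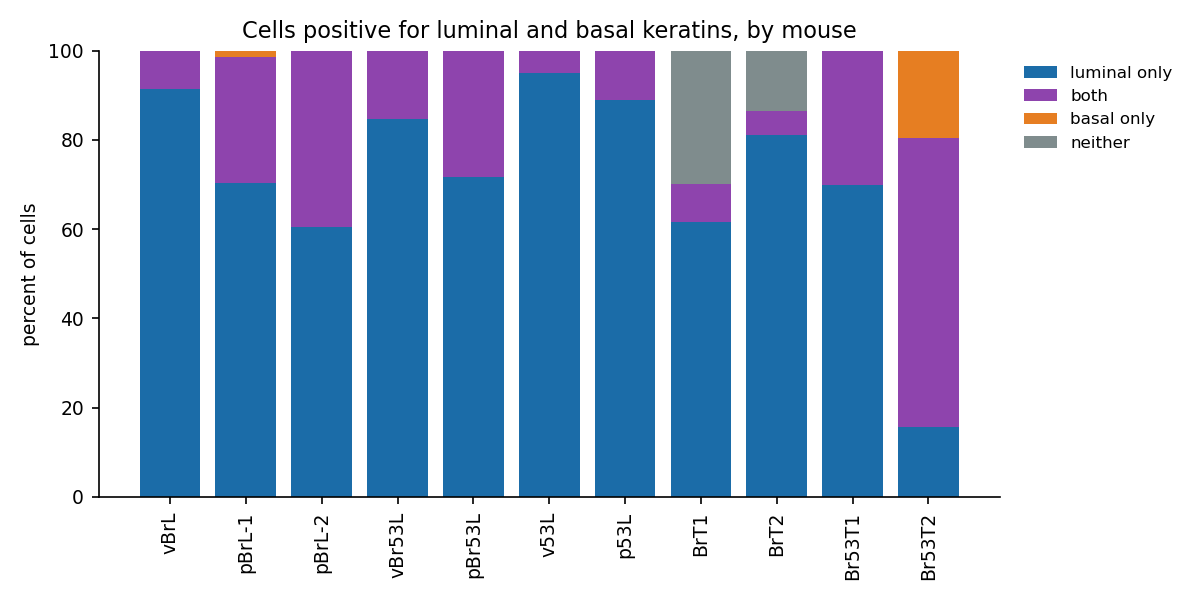
Percent of the cells of each mouse that were positive for luminal keratins only, for both kinds, for basal keratins only or for neither, at 10 reads of 100000. Cells with both made up 64.7% of Br53T2 and 5.00 to 39.5% of the other 10 mice, and cells with neither were found in BrT1 and BrT2 only.

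Of the basal lineage markers, Trp63, Acta2, Myh11, Mylk, Cnn1 and Tagln were read in few of the luminal cells with both kinds. Oxtr, Cdh3, Lgr5 and Procr were not examined by class, and Oxtr was 62.7 CPM over all cells of pBrL-2. In the 20 such cells of pBrL-1 the pooled level was 222 CPM for Krt14, 3315 for Krt18 and 1178 for Elf5, a regulator of alveolar cells, with Krt5, Acta2 and Trp63 at 0. Elsewhere pooled Acta2 was 128 CPM in the 4 such cells of p53L, where the median cell was at 0, and 12.1 CPM in the 15 of pBrL-2, against 0.0748 and 9.41 CPM in the cells with luminal keratins only. It was 0 in such cells of vBrL and vBr53L. In the 15 of pBr53L Krt5 was 2.95 CPM and Acta2 2.74 CPM. Doublets were not called computationally, and the study examined the captured sites under a microscope. The median number of detected genes was 5074 in the luminal cells with both kinds and 4720.5 in those with luminal keratins only. The 1 luminal cell with basal keratins only, of pBrL-1, had 213 CPM of Krt5, 406 of Krt14, 16875 of Acta2 (smooth muscle actin), 3104 of Myh11 and 6.52 of Epcam. It still had 30.8 CPM of Krt8 and 111 of Krt18, so it lay near the cut. All 360 Krt5 reads of pBrL-1 and 99.1% of its Acta2 reads were in that cell. Without it Krt14 in pBrL-1 was 69.5 CPM.

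The 4 tumors differed in the cells they held. In BrT1, 29 of 47 cells had luminal keratins only, 4 had both (8.51%, interval 2.37 to 20.4%) and 14 had neither (29.8%, interval 17.3 to 44.9%). These shares depended on the minimum, since at 1 read 27.7% had both, and only 4 of the 14 had no luminal keratin read. Pooled Krt18 was 431 CPM in the cells with luminal keratins only and 15.03 in those with neither, whereas Vim, the intermediate filament of mesenchymal cells, was at 4249 and 3564 CPM. Krt14 was the only basal keratin at the minimum there, at 140 CPM in the 4 cells with both. In BrT2, 30 of 37 cells had luminal keratins only, 2 had both, each with Krt17, and 5 had neither, 2 of them without any luminal keratin read. Those 5 cells had 961 CPM of Vim against 188 in the cells with luminal keratins only, and 13.49 against 967 CPM of Epcam. The 8 mesenchymal genes had a summed level of 9486 CPM for BrT1 and 6568 CPM for BrT2, none of them at 0. In BrT2 most of this was Fn1 (fibronectin) at 6199.9 CPM, with Vim at 306 CPM. Their sum was 189 CPM for Br53T1, 597 CPM for Br53T2 and 4.02 to 104 CPM over the luminal mice. The 8 fibroblast genes reached 5038 CPM in BrT1, with Lum and Dpt at 0, against 3.44 to 101 CPM in the other tumors. Over the luminal mice they ranged from 0.117 to 712 CPM, nearly all of it Dcn (decorin) in vBrL (711 CPM), vBr53L (579 CPM) and v53L (176 CPM). The part of either list in the keratin levels of BrT1 and BrT2 was not tested.

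In Br53T1, 21 of 30 cells had luminal keratins only and 9 had both (30.0%, interval 14.7 to 49.4%). Krt14 was at the minimum in 7 of the 9. Those 9 cells had 622 CPM of Krt14 and 926 of Krt7, against 2.87 and 210 CPM in the others, and Trp63 at 40.1 against 28.8 CPM. These are pooled levels carried by a few cells, since the median cell had 351 against 204 CPM of Krt7, 132 against 0 CPM of Krt14 and 0 CPM of Trp63 in both. Acta2 was 0.423 CPM in the 9 cells, so this tumor held basal keratin without the contractile genes. Trp63, the basal lineage transcription factor, was 32.2 CPM in Br53T1, 133 in Br53T2 and at most 1.03 CPM in every other mouse.

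Br53T2 had cells along the whole range. Of 51 cells, 33 had both kinds (64.7%, interval 50.1 to 77.6%), 10 had basal keratins only (19.6%, interval 9.82 to 33.1%) and 8 luminal keratins only (15.7%, interval 7.02 to 28.6%). Its share with both was the highest of the 11 mice, although its interval overlapped that of pBrL-2, from the same chip (upper bound 56.6%), and cleared that of Br53T1 only narrowly (upper bound 49.4%). The intervals of Br53T1 and Br53T2 overlapped at a minimum of 100 reads (20.8 to 47.9% against 3.76 to 30.7%) and with Krt8 and Krt18 against Krt5 and Krt14 only (20.8 to 47.9% against 9.93 to 42.3%). At least 2 basal keratins were read in 43 of its 51 thinned cells, against 4 of 30 in Br53T1 and 0 in the Br tumors. Of its 10 basal-only cells, 5 had no luminal keratin read after thinning.

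**Figure D4:**
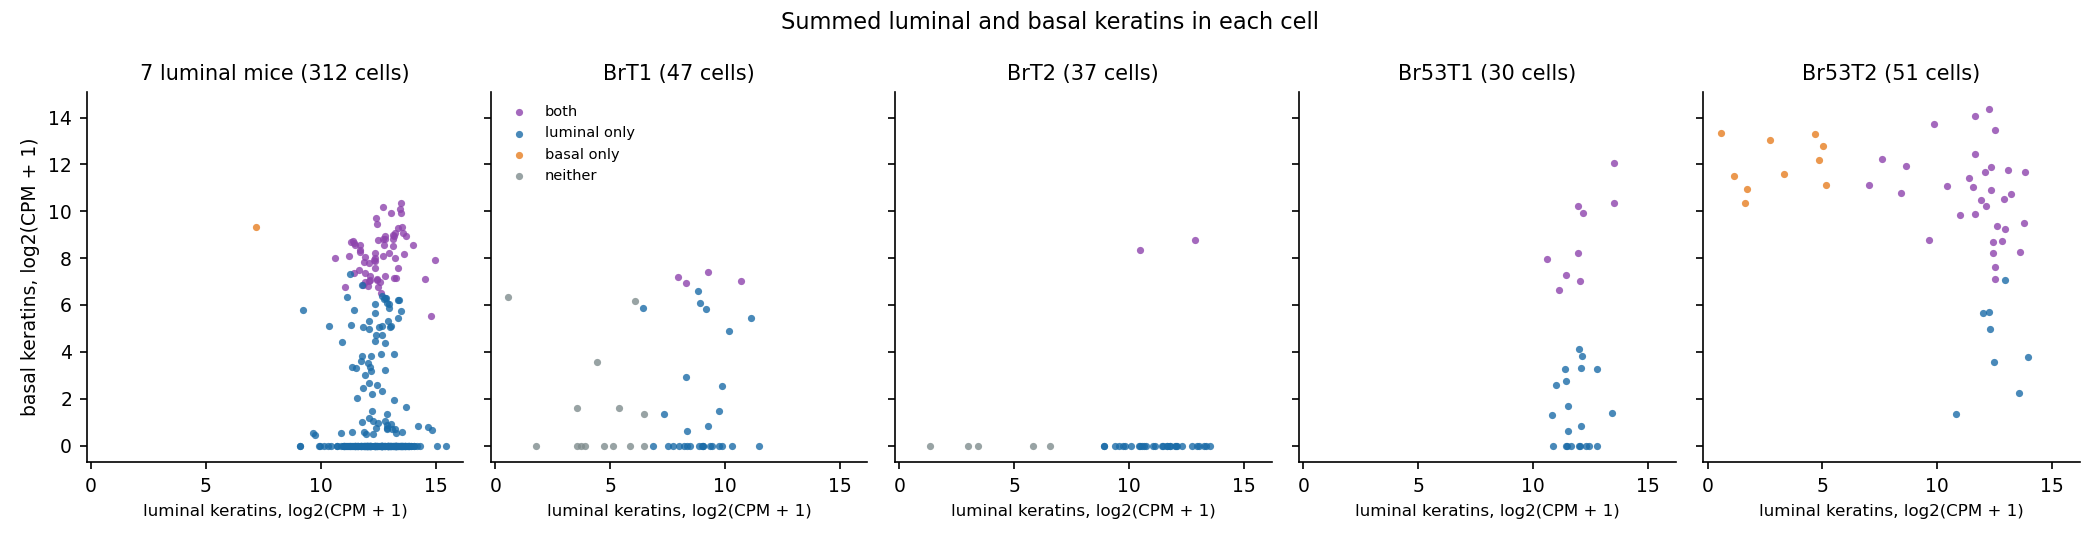
Summed luminal keratins (horizontal) against summed basal keratins (vertical) in each cell, both as log2(CPM + 1), for all luminal mice together and for each tumor; colours give the class of the cell after thinning. The 10 basal-only cells of Br53T2 lie at the upper left, its 33 cells with both at the upper right, and the 14 BrT1 and 5 BrT2 cells with neither at the lower left.

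The basal keratins of Br53T2 were mostly read together in a cell, but they were highest in different classes of cells. In the 10 basal-only cells pooled Krt14 was 1682 CPM, Krt17 3714 and Krt5 304, with Krt18 at 7.39. Acta2 was 11744 CPM, Myh11 744, Cnn1 1130 and Trp63 333 in these cells, and the luminal regulator Elf5 had no read. In the 33 cells with both, Krt18 was 2384 CPM, Krt17 1703, Krt6a 646, Krt14 532 and Krt15 381, and Acta2 was 686. The median cell among these 33 was lower, with 413 CPM of Krt17, 108 of Krt6a, 99.5 of Krt15, 55.1 of Krt14 and 11.5 of Acta2. Only pooled levels are given for the other classes, and these medians are not to be set against them. In the 8 luminal-only cells Krt18 was 5119 CPM, Elf5 271 and Krt17 2.10. So Krt6a and Krt15 were highest in the cells with both kinds, at 26.2 and 72.1 CPM in the basal-only cells. The classes were set by the same keratins, and these levels are a description. The median of detected genes was 6678 in the cells with both, 6355 in the luminal-only and 3831.5 in the basal-only cells, and whether captured pairs of cells add to the first was not tested.

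**Figure D5:**
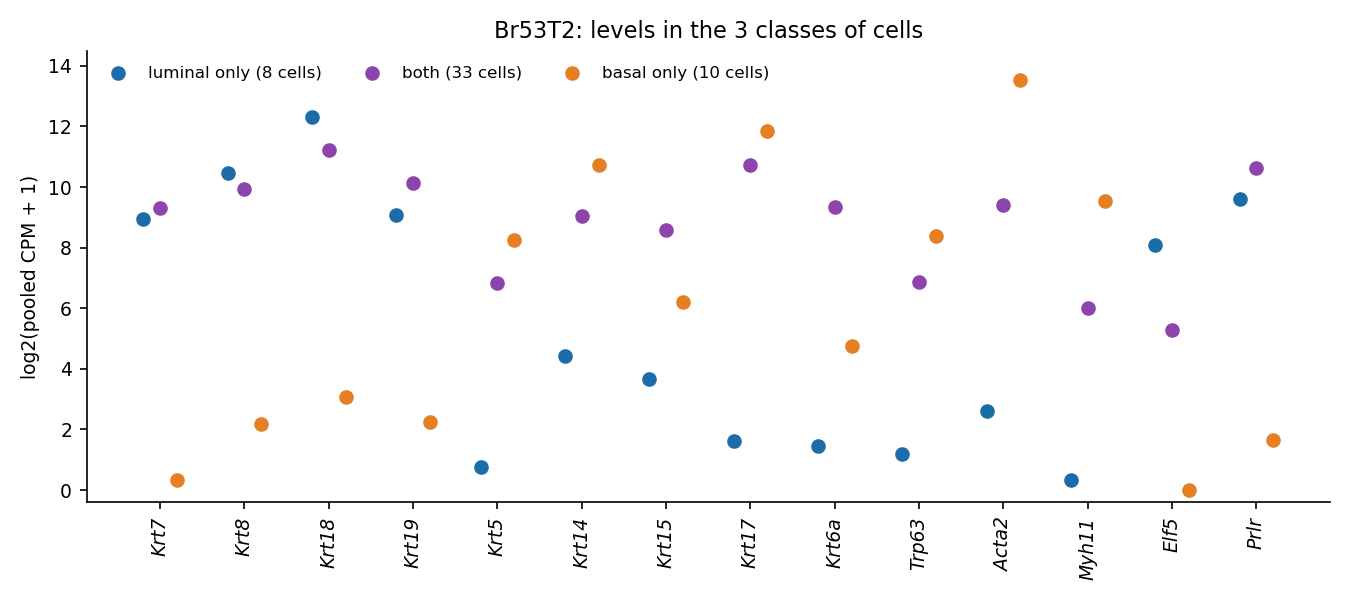
Pooled level in the 3 classes of Br53T2 cells, as log2(pooled CPM + 1), for the 9 keratins and for Trp63, Acta2, Myh11, Elf5 and Prlr; each point is the sum over the cells of a class, with no error. Acta2 and Krt14 are highest in the 10 basal-only cells (11744 and 1682 CPM), and Krt6a and Krt15 in the 33 cells with both (646 and 381 CPM).

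Over the 51 cells of Br53T2, Spearman's rho was 0.908 for Krt8 with Krt18 and -0.611 for Krt18 with Krt14. It was 0.672 for Krt5 with Krt14, 0.600 for Krt14 with Acta2 and 0.573 for Krt14 with Trp63. For Krt6a it was -0.207 with Acta2 and 0.552 with Krt16, its usual type I partner. These cells share a library and a total, so the values are given as a description. Without the 10 basal-only cells Br53T2 had 421 CPM of Krt14, 87.8 of Krt5 and 1336 of Krt17. These were still the highest of the 11 mice. Acta2 fell from 2508 to 539 CPM.

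Of the 43 other keratins, 6 had no read in any cell and 9 reached 10 CPM in a mouse. Krt16 was the only 1 above 100 CPM, at 136 CPM in Br53T2. Among the 14 proteins that tie keratins to junctions and matrix, 13 were in the table and none passed the test in the tumor comparison, beside 0.609% of all genes, with a median log2 fold change of 0.29 against 0.06 over all genes. Plec (plectin), Pkp1 (plakophilin), Itgb4 (the hemidesmosome integrin) and Col17a1 were the 4 at an unadjusted p under 0.05, beside 1788 of the 12978 genes, all with higher fitted levels in tumors. Itgb4 was 40.5 to 101 CPM in the tumors, whereas the 5 Brca1-deficient luminal mice had 14.4 to 22.1 CPM (log2 fold change 1.73 ± 0.40, adjusted p = 0.0754 in edgeR). Col17a1, a basal hemidesmosome collagen, was 209 CPM in Br53T2 and at most 1.17 CPM elsewhere, and 53.97% of its Br53T2 reads were in the basal-only cells. Dsp (desmoplakin) was 451 CPM in Br53T2 and had no read in BrT1. Of the 18 keratin and lineage regulators, 16 were tested and none was called there either.

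The genes most like a keratin were named by Pearson's r of log2(CPM + 1) over the 11 mice among 8886 genes whose mean was 10 CPM or more. For Krt18 these were Celsr2 (0.975), Dsg2 (0.975) and Mtus1 (0.968), and for Krt8 they were Rps9 (0.956), Ndufa3 (0.952) and Csn3 (0.946). For Krt14 they were Csnk2b (0.912), Crabp2 (0.910) and Eif4e2 (0.901), and for Krt17 S100a14 (0.978), Kdm2b (0.895) and Tagap1 (0.881). These values describe 11 points and can rest on 1 or 2 mice, as for S100a14 (112 CPM in Br53T2 and at most 13.2 CPM elsewhere) and Crabp2 (1.56 CPM in BrT2 and 7.54 CPM in v53L). Dsg2, a desmosomal cadherin, was 249.4 to 704 CPM in the luminal mice and 4.40 CPM in BrT1.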

How the data were processed

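Single-cell libraries were made on the Fluidigm C1 with the SMARTer chemistry, without molecular identifiers. The authors trimmed reads with sickle and Trim Galore 0.4.1, aligned them to mm10 with STAR 2.5.3a and counted them with Subread 1.5.3, and deposited whole-number read counts per gene and cell. The annotation and strand setting are not given in the sources used here. Counts were summed per mouse, since cells are not replicates, and tested in R 4.3.3 with edgeR 4.0.16 (quasi-likelihood, TMM, filterByExpr) with Benjamini-Hochberg adjustment over all genes tested, and a threshold of 0.05. DESeq2 1.42.0 and limma 3.58.1 (log2 of mean CPM + 1) were alternatives. Each mouse is 1 animal. Levels are CPM on the total reads of a mouse or cell, and sums weight deeper cells more. Every cell held over 150000 reads, so none was left out by thinning. The SE of a log2 fold change is its size divided by the square root of its F statistic. The test was checked on simulated counts. Other alternatives were the scaling, the filter, cell filters, the reference mice and each mouse left out. The 9 keratins were all named, the other keratins if called or at 100 CPM, and the 3 most alike genes by rank among those with a mean of 10 CPM. The members and lists were chosen with earlier results of these data known. The interaction and the removal of basal-only cells were added after seeing the data.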

Additional observations from a re-analysis of the deposited data

Results flagged for a closer look

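Of 36 pairs of a keratin and a group of 4, 5 or 7 mice, 9 held a mouse far from the others by Dixon's criterion, which chance meets in about 1 of 20 groups. All values are log2(CPM + 1). Among the 4 tumors BrT1 was low in Krt8, at 7.48 with the next tumor at 9.78, and in Krt18, at 8.30 with the next at 10.96. Br53T2 was high in Krt5, at 6.99 with the next tumor at 0.03, and in Krt6a, at 8.73 with the next at 1.19. Among the 7 luminal mice v53L was low in Krt14, at 0 with the next at 5.45. Among the 5 Brca1-deficient luminal mice vBr53L was high in Krt7, at 8.17 with the next at 5.90, and in Krt18, at 12.47 with the next at 11.77. Among the 4 pregnant mice p53L was low in Krt7, at 3.86 with the next at 5.09, and in Krt17, at 0.0915 with the next at 1.93.

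Krt14 was lower in both Br tumors than in the Br luminal mice and higher in both Br53 tumors than in the Br53 luminal mice. The difference between these changes, tested as an interaction and chosen after seeing the data, was 5.22 on the log2 scale and did not pass (adjusted p = 0.920 in edgeR).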

How the results depend on the processing

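No keratin was called between tumors and Brca1-deficient luminal mice in any of 21 alternatives, and Krt8 stayed between -1.50 and -0.92 (log2). Krt14 there reversed to -0.68 with limma on mean CPM over cells, and leaving out single mice gave -0.33 to 1.66 for Krt14 and -1.65 to 7.65 for Krt6a, the lowest values both without Br53T2. For pregnancy, the number of keratins called was 1 without the low-count filter, 1 with chip in place of genotype and 2 with DESeq2, against 0. For Br53 against Br tumors it was 6 without the filter and 2 with DESeq2, and 0 to 4 with 1 tumor left out, where the lone Br tumor is assumed to vary like the others. For Brca1-deficient against Trp53 mutant luminal mice it was 1 with DESeq2 and 0 to 1 with 1 mouse left out. Br53T2 cells with both kinds were 88.2% at 1 read, 33.3% at 100 reads and 33.3% with Krt8 and Krt18 against Krt5 and Krt14 only, the highest of all mice in all 6 settings, though with only those 4 keratins pBrL-2 was close at 31.6%. In the luminal mice the share was 5.00 to 57.9% at 1 read and 0 to 5.26% at 100 reads, against 5.00 to 39.5%, and at 100 reads virgin and pregnant mice could hardly be ordered, with 5 of 7 at 0. Keratin levels by mouse were also taken without caseins and as mean CPM over cells. Of 198 such values 6 moved by over 1.5 times, none of them at a level of 10 CPM or more. The cause of these changes was not tested.

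Counts over all genes moved more. Against 79 for the tumor comparison, DESeq2 called 808, limma 352, all 7 luminal mice as the reference 213, no filter 129, library size alone 124, pregnant mice only 44 and virgin mice only 0, and leaving out single mice gave 11 (pBrL-1) to 94. Against 2 for pregnancy, DESeq2 called 967, no filter 366, chip 42, limma 40, no covariate 17 and 30 cells per mouse 1, with 0 to 4 when 1 mouse was left out. Against 0, DESeq2 called 315 and no filter 295 for Br53 against Br tumors, and 647 and 106 for the luminal genotypes, with 0 to 228 (without BrT2) and 0 to 142 (without p53L) when 1 mouse was left out. The replicate number 1 marks no common animal, litter or day, so no pairing by these was possible. Chips were shared by vBr53L and pBr53L, by v53L and p53L, and by Br53T2 and pBrL-2. The fit with chip and the differences within a chip were the only values that set these mice side by side.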
